A study of Mus musculus with 29 samples.

Results

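The 10 genes described here make, carry or regulate bile acids, and were followed by bulk RNA-seq in whole liver of young and aged mice. The members were the rows of the count table named Cyp7a1, Cyp7b1, Cyp8b1, Cyp27a1, Baat, Slc10a1, Abcb11, Abcb4, Nr1h4 and Nr0b2, which are 10 of 55421 gene rows, and each name was found on 1 row. They were chosen by name, and all 10 passed the filter on low counts in every comparison. Old mice of strain C57BL/6J, aged 20 months (females) or 24 months (males) in the labels, received HDM201 at 10 mg/kg or the vehicle, phosphate-buffered methylcellulose, by gavage each day for 14 days. HDM201 is an inhibitor of MDM2, the ligase that holds p53 down. Young mice were C57BL6/N, aged 5 months in the labels, and received the vehicle. The methods of the study give ages that differ by a month for the young mice and the old females. No young mice received HDM201, none of the mice carried an engineered allele by the labels, and substrain and age changed together, so they cannot be told apart. Old males were older than old females, so where old mice or effects are compared between the sexes, sex and old age cannot be told apart. Counts covered 5 young vehicle, 4 old vehicle and 5 old HDM201 females, and 4 young vehicle, 4 old vehicle and 5 old HDM201 males. Levels are given as CPM, a gene's counts scaled to library size, with TMM factors over the 27 mice, with mice in the order of their numbers, and the spread is the SD over mice.

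Hepatocytes turn cholesterol into bile acids by a classic route, which opens with Cyp7a1, and an alternative route, which opens with Cyp27a1 and goes on through Cyp7b1. Bile acids are joined to taurine or glycine, pumped into bile, taken up again in the gut and returned to the liver. The receptor FXR, encoded by Nr1h4, senses bile acids in this cycle and induces Nr0b2, which encodes the repressor SHP, and the export pumps, while synthesis is lowered. Cyp7a1 also varies over the day with feeding and the liver clock.

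Depth was 16485900 to 23570458 counts on genes per mouse, and each member rested on 268 to 24518 counts in a mouse. No 2 mice of a group agreed within sampling noise. The sex in the labels matched Xist against the Y-linked genes in 14 of 14 females and 13 of 13 males. The summed level of the 10 hepatocyte markers, 92290.0 to 173921 CPM over all mice, matched the labelled tissue, liver. No batch or day of collection is given in the labels. In these whole-tissue libraries a lower level can come from fewer cells of a type or from less RNA per cell, which cannot be told apart. Where markers of other cells are set beside a result, no gene of those lists was at 0 counts in any of the groups.

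The members lie on 8 chromosomes of GRCm38, from GENCODE release M21, which may not be the annotation of the counts. Of the enzymes, Cyp7a1 (ENSMUSG00000028240.2, chr4:6265612-6275633), Cyp7b1 (ENSMUSG00000039519.6, chr3:18071950-18243338), Cyp8b1 (ENSMUSG00000050445.4, chr9:121914356-121916305) and Baat (ENSMUSG00000039653.9, chr4:49489422-49506557) are on the minus strand and Cyp27a1 (ENSMUSG00000026170.6, chr1:74713574-74737892) is on the plus strand. The transporters Slc10a1 (ENSMUSG00000021135.8, chr12:80953183-80968705) and Abcb11 (ENSMUSG00000027048.15, chr2:69238282-69342616) are on the minus strand and Abcb4 (ENSMUSG00000042476.12, chr5:8893717-8959231) is on the plus strand. The nuclear receptors are Nr1h4 (ENSMUSG00000047638.15, chr10:89454234-89533585, minus strand) and Nr0b2 (ENSMUSG00000037583.2, chr4:133553376-133556536, plus strand). Other annotated genes overlap 3 members: the pseudogene Gm17936 overlaps Abcb4, the antisense gene Gm13613 and the pseudogene Gm13614 overlap Abcb11, and the small nuclear RNA Gm23686 overlaps Cyp7b1. Gm17936 and Gm23686 lie on the same strand as their members. Gm13613 and Gm13614 lie on the strand opposite to Abcb11, and use of the strand in counting is not stated. A part of the reads of these 3 members could belong to these partners.

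The 250 bases before the RefSeq start are shown for the member that HDM201 changed in females, Abcb4, and for the members with the largest called differences between old and young females, Slc10a1 and Cyp8b1, so that their start regions can be set side by side. RefSeq entries on GRCm38.p6 were found for 7 of the 10 members, with no entry for Cyp7a1, Cyp7b1 and Baat, and the more distal of the Slc10a1 starts is shown. Capitals mark matches to the motifs searched, each on both strands: the nuclear receptor half-site AGGTCA, its inverted repeat AGGTCANTGACCT, the E-box CACGTG, the D-box TTATGTAA of clock output factors, the STAT5 site TTCNNNGAA, the GC box GGGCGG, the TATA box TATAAA and the p53 half-site. The windows, written 5′ to 3′ on the strand of the gene, are chr5:8893471-8893720 (plus), chr12:80968706-80968955 (minus) and chr9:121916306-121916555 (minus).
Abcb4: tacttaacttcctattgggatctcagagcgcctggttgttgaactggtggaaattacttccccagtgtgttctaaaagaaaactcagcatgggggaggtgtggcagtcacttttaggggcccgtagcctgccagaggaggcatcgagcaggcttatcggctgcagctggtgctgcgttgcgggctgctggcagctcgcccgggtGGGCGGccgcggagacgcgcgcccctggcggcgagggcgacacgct
Slc10a1: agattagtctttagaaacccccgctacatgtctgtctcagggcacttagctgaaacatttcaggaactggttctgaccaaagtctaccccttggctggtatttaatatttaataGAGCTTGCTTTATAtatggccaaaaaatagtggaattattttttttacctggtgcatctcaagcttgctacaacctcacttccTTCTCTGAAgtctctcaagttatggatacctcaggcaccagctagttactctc
Cyp8b1: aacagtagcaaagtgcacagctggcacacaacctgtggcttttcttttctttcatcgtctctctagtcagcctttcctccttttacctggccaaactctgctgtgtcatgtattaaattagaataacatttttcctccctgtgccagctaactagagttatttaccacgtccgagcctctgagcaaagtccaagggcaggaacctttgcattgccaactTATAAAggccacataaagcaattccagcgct
Abcb4 held a GC box, first base at -46 from the start, a motif found in 32.7% of the 32851 promoter windows in the table. Slc10a1 held a STAT5 site at -53 (7.02% of windows) and, overlapping each other, a p53 half-site at -136 (7.13%) and a TATA box on the opposite strand at -128 (12.4%). The window of the other Slc10a1 start (chr12:80968080-80968329, minus strand), which is not shown, held an AGGTCA half-site at -87 from that start and 2 p53 half-sites farther from it. Cyp8b1 held a TATA box at -31. Among the other members, the half-site AGGTCA (14.0% of windows) occurred in the Abcb11 window at -56 and the Nr1h4 window at -214, and the E-box (6.02%) and a STAT5 site in the Nr0b2 window at -195 and -91. The inverted repeat (0.00609% of windows) and the D-box (0.819%) had no match in the windows of the 7 members with an entry. A match describes letters in the window and not binding.

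Per kb of merged exon, the members spanned more than an order of magnitude. Cyp27a1, the mitochondrial sterol 27-hydroxylase, had the highest median over the 27 mice, 273 CPM per kb (198 to 404). Slc10a1, which encodes the sodium-coupled uptake carrier NTCP, followed at 245 CPM per kb (131 to 579). These 2 genes did not separate, since Cyp27a1 was above Slc10a1 in 16 of 27 mice.
Baat, the enzyme that conjugates bile acids, had a median of 125 CPM per kb (85.0 to 138), and Abcb11, the bile salt export pump, 113 CPM per kb (62.2 to 181). Baat was above Abcb11 in 15 of 27 mice, and Slc10a1 was above Baat in 27 of 27. Cyp8b1, the sterol 12-hydroxylase that sets the share of cholic acid, stood at 74.8 CPM per kb, and Nr1h4 at 56.1 CPM per kb.
The lowest 4 medians belonged to Nr0b2 (25.7 CPM per kb), Cyp7a1 (22.7), Abcb4, the canalicular flippase for phosphatidylcholine (19.2), and Cyp7b1, the oxysterol 7-hydroxylase (14.8). Neighbours among these 4 kept their order in 14 or 15 of 27 mice. From the lowest to the highest mouse, Cyp7a1 varied 20.8-fold, Cyp7b1 10.9-fold and Cyp8b1 7.85-fold, while Baat varied 1.62-fold.

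**Figure D1:**
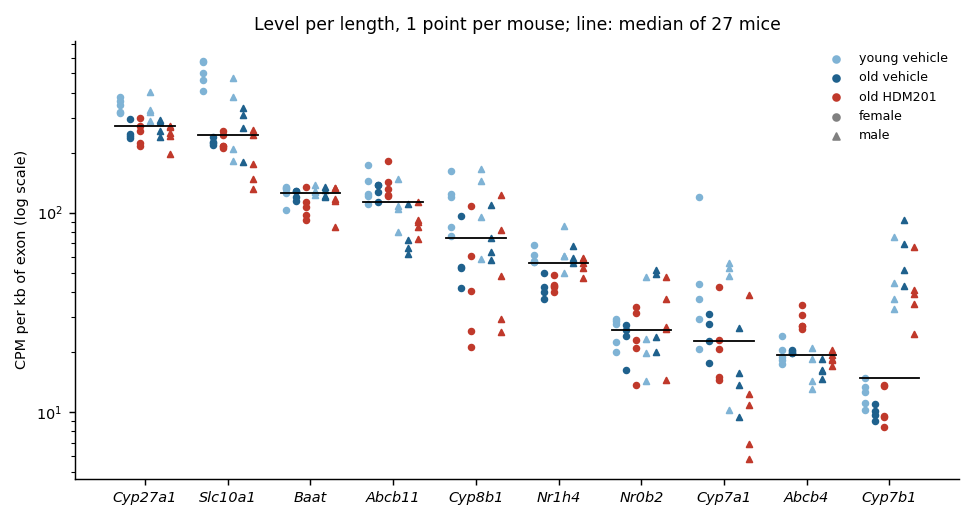
Level of each member per kb of merged exon (y axis, CPM per kb, log scale) in each of the 27 mice, with members ordered by median; colours give the treatment and age group, circles females and triangles males, and the line the median. Cyp27a1 and Slc10a1 lead at 273 and 245 CPM per kb, and the Cyp7b1 points fall apart by sex.

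Comparing old with young vehicle females asked how the pathway differs with age. The uptake carrier, the bile acid sensor and the enzymes Cyp27a1 and Cyp8b1 were lower in old females, while the conjugating enzyme and the canalicular pumps did not pass the test. Of the 10 members, 4 were called, each lower in old females (Slc10a1, Nr1h4, Cyp27a1 and Cyp8b1), beside 31.8% of the 14233 genes tested, so a share of 4 in 10 stands near the background. The median log2 fold change was -0.36 over the members and 0.0094 over all genes tested. In 3 members (Slc10a1, Nr1h4 and Cyp27a1) the groups did not overlap, beside 25.9% of all genes.
Slc10a1 had the largest called difference. It stood at 1274, 1257, 893, 1020.2 and 1102 CPM in young females and at 490.4, 498, 528 and 482 CPM in old females. Every old female was below every young one, and the old group was tight (mean 499.8 ± 20.0 against 1109 ± 161 CPM; log2 fold change -1.13, SE 0.11, edgeR FDR = 3.66e-05).
The rate-limiting gene of the classic route, Cyp7a1, measured 154, 183, 122, 86.3 and 503 CPM in young females and 115, 73.1, 94.7 and 129 CPM in old females. The groups overlapped, and young female 5 stood far above the rest. The difference missed the threshold (log2 fold change -1.01, SE 0.42, edgeR FDR = 0.0827), was -0.38 (FDR = 0.210) without young female 5, and was called without young female 4 (FDR = 0.0316) and with no filter on low counts (FDR = 0.00677).
Cyp8b1 measured 149, 233, 166, 315 and 241 CPM in young females and 104, 103, 81.4 and 188 CPM in old females. Old female 4 lay within the young range and the other old females below it (log2 fold change -0.86, SE 0.25, edgeR FDR = 0.0199). The call was lost without old female 1 (FDR = 0.0570), 2 (0.0587) or 3 (0.0512), in a fit of all 6 groups (FDR = 0.136) and in limma on FPKM (FDR = 0.0654 and 0.0666).
Cyp27a1 measured 826, 698, 688, 753 and 793 CPM in young females and 540.3, 524, 641 and 516 CPM in old females. No old female reached the lowest young one (log2 fold change -0.41, SE 0.0932, edgeR FDR = 0.00521). Cyp7b1, the next enzyme of the alternative route, was 22.0 to 32.1 CPM in young and 19.4 to 23.6 CPM in old females, overlapping, and missed the threshold (log2 fold change -0.30, SE 0.11, edgeR FDR = 0.0543). It was called under RLE scaling (FDR = 0.0480), with no filter (0.0455) and in DESeq2 (0.0474), and without some single mice (lowest FDR = 0.0173, without young female 4).
Nr1h4 measured 159, 140.4, 132, 129.7 and 130.4 CPM in young females and 114, 92.1, 97.4 and 84.4 CPM in old females, with no overlap (log2 fold change -0.49, SE 0.10, edgeR FDR = 0.00291). Its target Nr0b2 overlapped between the groups, 22.6 to 33.2 against 18.4 to 30.9 CPM (log2 fold change -0.11, SE 0.15, edgeR FDR = 0.625). The 3 other members that missed the test had narrow intervals: the 95% interval of the log2 fold change was -0.21 to 0.19 for Baat, -0.32 to 0.23 for Abcb11 and -0.16 to 0.25 for Abcb4.

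**Figure D2:**
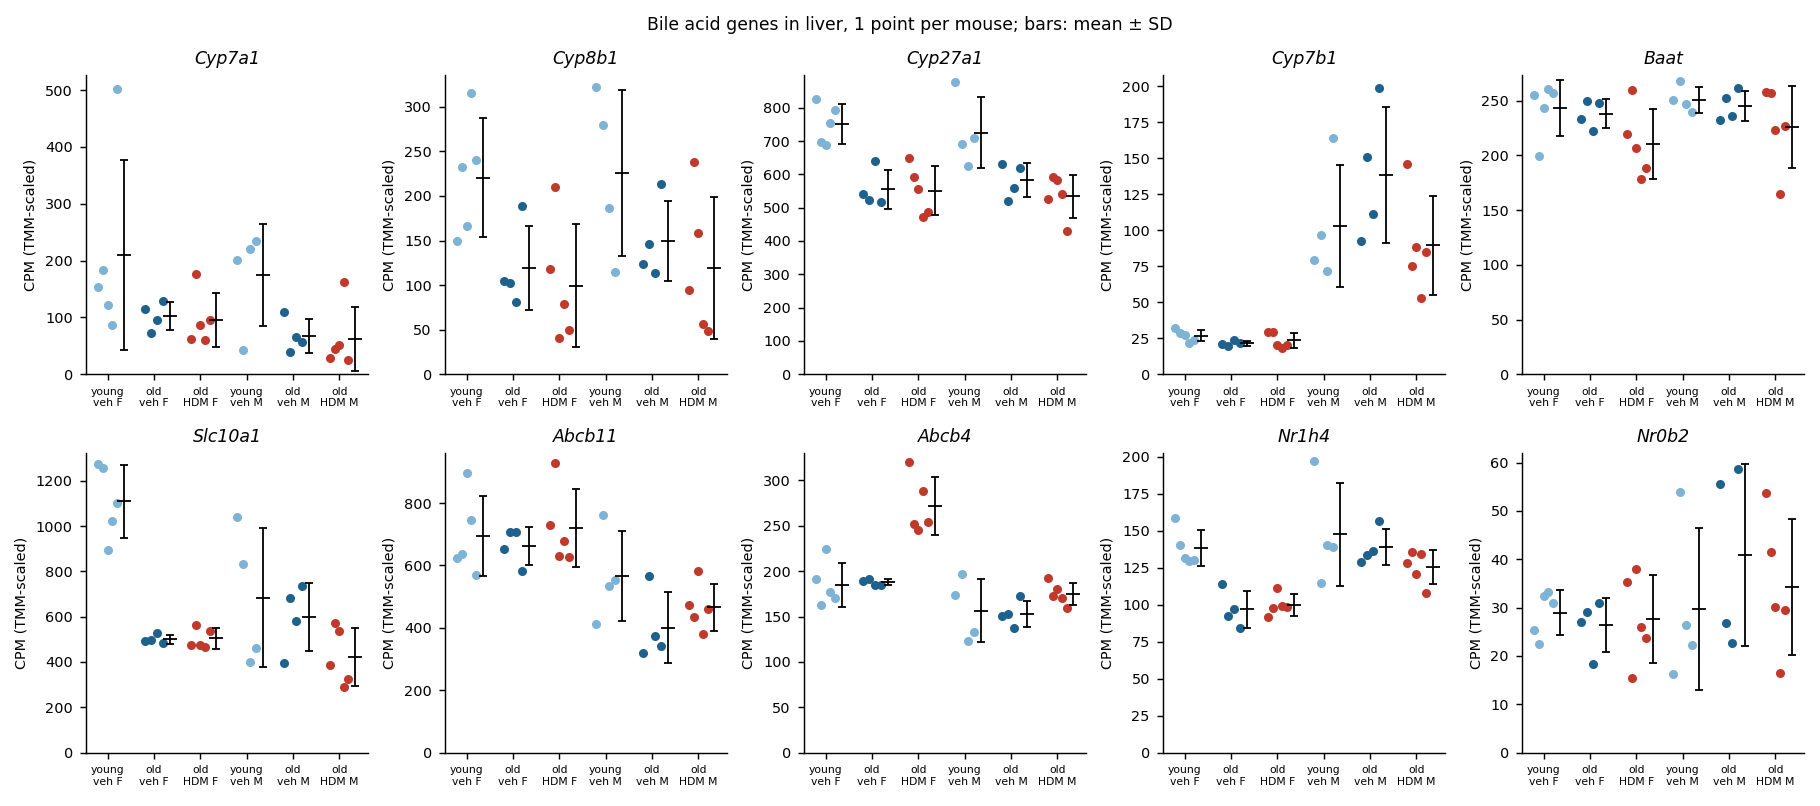
Level of each member (y axis, CPM, from 0) in each mouse of the 6 groups (x axis; veh, vehicle; HDM, HDM201; F, female; M, male), with 1 point per mouse and the mean ± SD beside it. Slc10a1 in old females lies between 482 and 528 CPM, below each young female, and Abcb4 in HDM201 females lies between 245 and 321 CPM, above each old vehicle female.

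The wider pathway lists are read beside the same 31.8% of genes called between old and young females. Of 15 other transporters tested, 3 were higher and 7 lower in old females, a share above it, and their median was -0.34 on the log2 scale. Slco1a1, an organic anion uptake carrier, had 30.6 to 91.1 CPM in young and 2.43 to 3.58 CPM in old females, a log2 fold change of -4.28 (SE 0.30, FDR = 4.82e-06). The next falls were Slco1a4, another uptake carrier, at -0.95 (SE 0.15, FDR = 0.000643), and Abcg8, part of the canalicular sterol pump, at -0.84 (SE 0.17, FDR = 0.00304). The rises were Abcc4, a basolateral efflux pump, at 1.87 (SE 0.23, FDR = 0.000152), Slc10a2, the apical sodium-dependent carrier, at 0.88 (SE 0.18, FDR = 0.00347), and Ephx1, microsomal epoxide hydrolase, at 0.51 (SE 0.12, FDR = 0.00611). Ephx1 was counted in this list of transporters although it is an enzyme.
Among 15 other synthesis and conjugation enzymes tested, 3 were lower in old females (of 5 with an unadjusted p under 0.05), a share below that of all genes. These were Akr1c6 at -0.52 (SE 0.11, FDR = 0.00428), the steroid 5-beta-reductase Akr1d1 at -0.42 (SE 0.10, FDR = 0.00844), and the peroxisomal carrier Abcd3 at -0.38 (SE 0.12, FDR = 0.0315). Abcd3 was counted in this list of enzymes although it is a carrier. Of 19 regulators tested, 4 were higher and 2 lower, a share near that of all genes. The largest rises were Zfp36l1, an RNA-decay factor, at 0.64 (SE 0.11, FDR = 0.000893), and Fgfr4, the receptor of the gut hormone that represses Cyp7a1, at 0.52 (SE 0.10, FDR = 0.00227). The falls were the coactivator Ppargc1a at -0.62 (SE 0.18, FDR = 0.0175) and Mafg, a transcriptional repressor, at -0.35 (SE 0.10, FDR = 0.0172). DESeq2 gave equal counts in both lists, while limma on FPKM called 7 regulators higher and 0 lower, and 1 synthesis enzyme higher and 1 lower.
Of 10 detoxification genes, 3 were higher and 2 lower. The bile acid sulfotransferase Sult2a1 rose by 2.99 (SE 0.48, FDR = 0.000810) on the log2 scale, the related Sult2a5 by 2.53 (SE 0.32, FDR = 0.000188) and Cyp2b10 by 0.84 (SE 0.16, FDR = 0.00197), while Sult2a8 had -1.97 (SE 0.21, FDR = 7.07e-05) and Cyp3a11 -0.80 (SE 0.26, FDR = 0.0326). The Sult2a genes are close paralogs, so reads could be split between them.
Other lists moved with this comparison. Of 14 clock genes tested, 3 were higher, led by Npas2 at 3.47 (SE 0.66, FDR = 0.00213), and 6 lower, led by Ciart at -3.22 (SE 0.67, FDR = 0.00338) and Dbp at -2.93 (SE 0.68, FDR = 0.00621). The 10 pericentral hepatocyte genes summed to 8001 to 12530.5 CPM in young and 4654 to 5880.2 CPM in old females, with 8 called lower. Kupffer cell and macrophage markers summed to 240.5 to 364 against 384 to 815 CPM, with 9 of 10 higher, and B and plasma cell markers to 18.5 to 27.7 against 168 to 243 CPM, with 7 of 8 higher. Cholangiocyte markers summed to 58.6 to 61.6 against 73.3 to 102 CPM, with 5 of 8 tested higher, and T and NK cell markers to 3.28 to 5.93 against 6.70 to 7.69 CPM, with 2 of 7 tested higher. Hepatocyte markers overlapped, 117337 to 126018 against 108023 to 136500.0 CPM, with 2 of 10 called lower. The 10 periportal hepatocyte genes overlapped too, 95817 to 102915 against 88208 to 111784 CPM, with 1 called higher and 4 lower. The part of the clock, of pericentral and periportal genes, of immune cells and of cholangiocytes in the differences of the members was not tested.

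**Figure D3:**
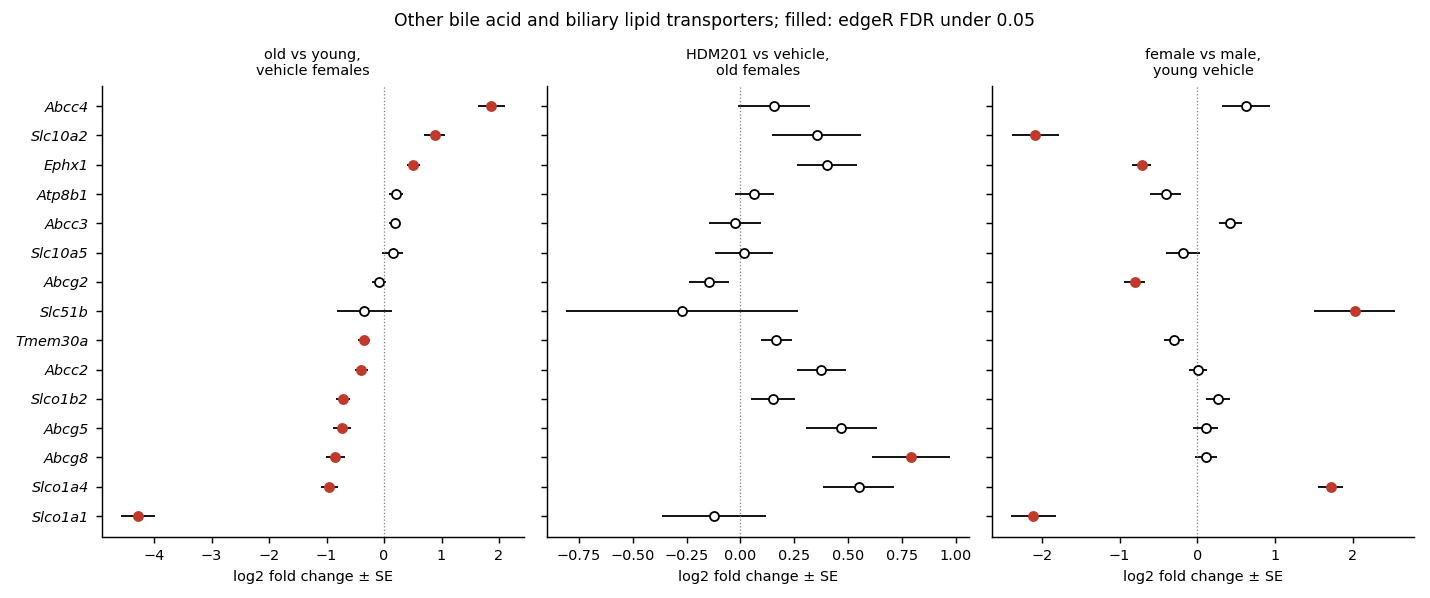
Log2 fold change (x axis, points, with the SE as bars; the x axes differ between panels) of the 15 other transporters tested, in old against young vehicle females (left), HDM201 against vehicle in old females (middle) and female against male young mice (right); filled points passed an edgeR FDR of 0.05. Slco1a1 stands at -4.28 on the left, and Abcg8 is the filled point in the middle, at 0.79.

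Comparing HDM201 with vehicle in old females asked what the drug did to the pathway in aged liver. Abcb4 was higher in treated females and the other 9 members did not pass the test, among them the 4 that differed between old and young females. The count of 1 in 10 members stands beside 5.25% of the 14445 genes tested.
Abcb4 measured 321, 252, 245, 288 and 254 CPM in HDM201 females and 189.7, 192, 185 and 184 CPM in old vehicle females. Every treated female was above every vehicle female, beside 10.2% of all genes with no overlap, and the 4 vehicle females were within a few CPM of each other. The mean was 272 ± 31.9 CPM (n = 5) against 188 ± 3.49 CPM (n = 4; log2 fold change 0.52, SE 0.0865, edgeR FDR = 0.00999; 95% interval 0.33 to 0.70). It was called in 7 of 7 alternative fits (highest FDR = 0.0373) and without any 1 of the 9 mice (highest FDR = 0.0363, without old vehicle female 2). Young females had 191, 163, 224, 177 and 170.2 CPM, which overlapped the old vehicle females.
The other canalicular pump, Abcb11, measured 729.8, 929, 631, 678 and 626 CPM with HDM201 and 651, 709, 708 and 582 CPM with vehicle. The groups overlapped (95% interval of the log2 fold change -0.16 to 0.35). Slc10a1 measured 475, 565, 476, 464 and 538 CPM with HDM201, across the range of the vehicle females and below each young female (log2 fold change against old vehicle -0.17 to 0.16, 95% interval).
The synthesis genes overlapped between treated and vehicle females. Cyp7a1 measured 62.2, 177, 85.9, 60.5 and 95.5 CPM with HDM201 (log2 fold change -0.12, SE 0.28, edgeR FDR = 0.848), and Cyp8b1 119, 209.8, 41.0, 78.5 and 49.7 CPM (log2 fold change -0.28, SE 0.42, edgeR FDR = 0.736). For both the spread was wide, with 95% intervals of -0.74 to 0.50 and -1.20 to 0.63, so a fall of a log2 unit in Cyp8b1 lay within its interval and a rise of that size did not. Cyp27a1 was measured more closely, at 471 to 649 CPM with HDM201 and 516 to 641 CPM with vehicle (95% interval -0.26 to 0.20). Baat stood at 179 to 259.9 against 222 to 249 CPM (log2 fold change -0.20, SE 0.10, edgeR FDR = 0.274), Cyp7b1 at 18.3 to 29.6 against 19.4 to 23.6 CPM (95% interval -0.19 to 0.43).
The receptors also overlapped: Nr1h4 was 91.8 to 112 CPM with HDM201 and 84.4 to 114 CPM with vehicle (95% interval -0.17 to 0.21), and Nr0b2 15.4 to 38.0 against 18.4 to 30.9 CPM (95% interval -0.45 to 0.55).
In the wider pathway, 1 of 15 other transporters was called: Abcg8 rose, with 75.0 to 129 CPM in vehicle and 123 to 195 CPM in HDM201 females, a log2 fold change of 0.79 (SE 0.18, FDR = 0.0321). The median over the 15 transporters was 0.15, beside 0.0010 over all genes tested. DESeq2 called 3 of the 15 transporters, all higher, and limma on FPKM 0 of 14. Of 15 other synthesis enzymes, 0 passed in edgeR, 1 in DESeq2 and 0 in limma, with 2 under an unadjusted p of 0.05 in edgeR. Of 10 detoxification genes, 0 passed in these 3 tools, with 0 under an unadjusted p of 0.05. Of 19 regulators, Hnf4a, a nuclear receptor that drives hepatocyte genes, was lower, at -0.27 (SE 0.0609, FDR = 0.0320), and of 14 clock genes Cry1, at -1.68 (SE 0.37, FDR = 0.0264). Among regulators, DESeq2 called 1 higher and 1 lower, and limma on FPKM 1 lower. Among clock genes, DESeq2 called 1 lower and limma 0 of 13.
Kupffer cell and macrophage markers moved with this comparison, 241 to 398 CPM with HDM201 against 384 to 815 CPM with vehicle (8 of 10 lower in edgeR, 3 of 9 in limma). Cholangiocyte markers did too, 106 to 191 against 73.3 to 102 CPM (3 of 8 tested higher in edgeR, 0 of 8 in limma). B and plasma cell markers overlapped, 76.2 to 231 against 168 to 243 CPM (1 of 8 lower in edgeR, 3 in DESeq2). In edgeR, 1 of 8 endothelial and 1 of 10 hepatocyte markers were lower. The part of these cells in the Abcb4 difference was not tested. The 4 old vehicle females serve in this comparison and in that of age, and a value high or low in them enters each.

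**Figure D4:**
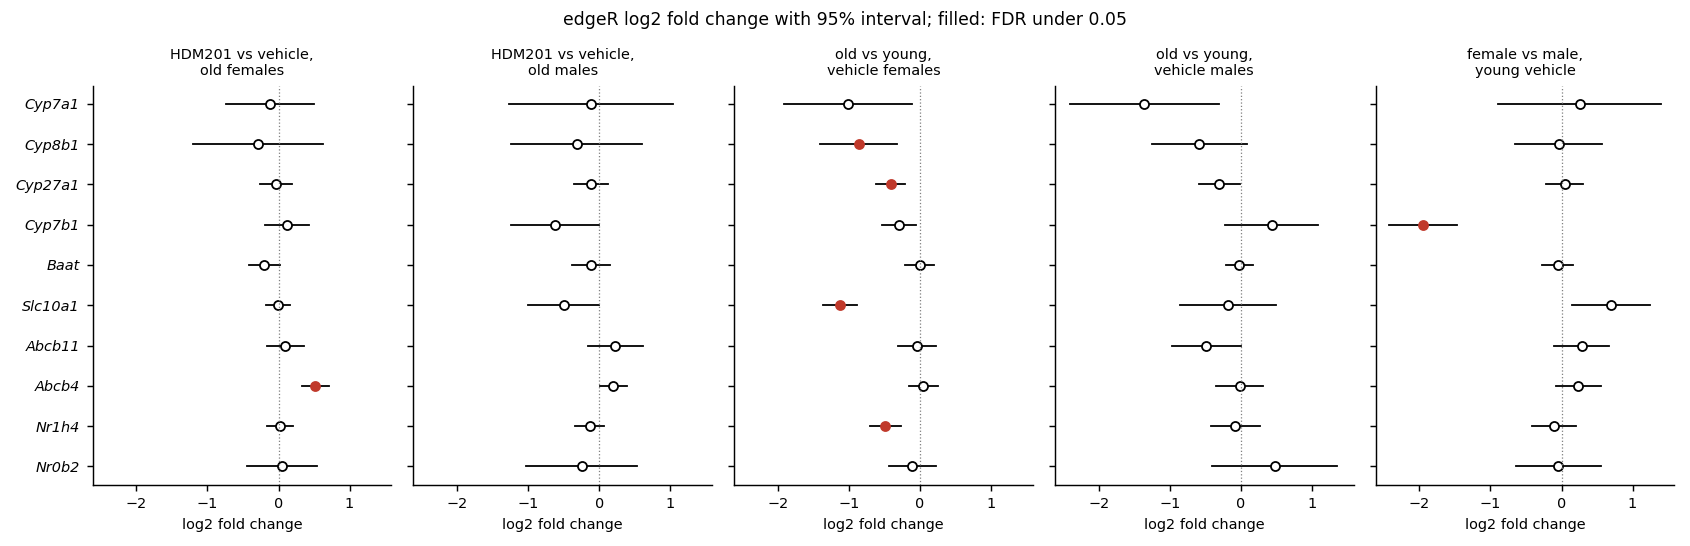
edgeR log2 fold change of the 10 members (points) with its 95% interval (lines) in 5 comparisons; filled points passed an FDR of 0.05 over all genes tested. Abcb4 is filled at 0.52 in HDM201 females, 4 members are filled below 0 in old against young females, Cyp7b1 is filled at -1.95 in young females against males, and no point is filled in the male comparisons.

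In old males, HDM201 was compared with vehicle in the same way. No member passed (0 of 10 in edgeR, DESeq2 and limma), beside 0.00709% of the 14109 genes tested, which is 1 gene, and 2 members had an unadjusted p under 0.05. No member separated the groups, beside 4.03% of all genes. Abcb4 measured 192, 173, 179.9, 170.4 and 159 CPM with HDM201 and 151, 153, 137 and 172 CPM with vehicle. The treated males lay high within an overlapping range (log2 fold change 0.20, SE 0.0862, edgeR FDR = 0.395; 95% interval 0.0090 to 0.39). This fit lacks old vehicle male 1, which has no counts. In FPKM that mouse had 49.0 of Abcb4, above the 37.4 to 45.0 of the HDM201 males. The difference between the effects in females and males was a log2 of 0.32 (SE 0.12, edgeR FDR = 0.170), so the effect was not shown to differ by sex.
Slc10a1 measured 384, 570.4, 538, 289 and 324 CPM with HDM201 and 396, 681, 583 and 736 CPM with vehicle. Vehicle male 2 lay among the treated males (log2 fold change -0.50, SE 0.23, edgeR FDR = 0.412). Cyp7b1 was 146, 75.1, 88.6, 53.2 and 84.7 CPM with HDM201 and 92.5, 151, 111 and 199 CPM with vehicle, overlapping (log2 fold change -0.62, SE 0.28, edgeR FDR = 0.413).
Cyp7a1 was 28.6, 45.1, 51.5, 162 and 24.2 CPM with HDM201 and 109, 39.5, 65.7 and 56.6 CPM with vehicle. HDM201 male 4 was the highest of these, and the other 4 treated males lay below 3 of the 4 vehicle males (log2 fold change -0.11, SE 0.52, edgeR FDR = 0.945). For the other members, the log2 fold changes lay between -0.32 (Cyp8b1) and 0.22 (Abcb11). Over the interaction of HDM201 and sex, 0 of 10 members passed in edgeR, DESeq2 and limma, beside 0.107% of 14974 genes, and an unadjusted p fell under 0.05 for 2. Of the wider pathway lists, edgeR called 0 of 15 synthesis enzymes, 14 transporters, 19 regulators, 7 detoxification and 14 clock genes in old males, with 2, 1, 3, 2 and 6 under an unadjusted p of 0.05, and DESeq2 called 1 synthesis enzyme. Kupffer cell and macrophage markers overlapped, with a summed level of 241 to 646 CPM with HDM201 against 165 to 511 CPM with vehicle. B and plasma cell markers were apart, 339 to 470.1 CPM with HDM201 against 117 to 243 CPM with vehicle, with 0 of 8 called in edgeR (3 with an unadjusted p under 0.05), 2 in DESeq2 and 0 of 7 in limma, and their part in the values of the members was not tested.

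Between old and young vehicle males, 0 of 10 members passed in edgeR, DESeq2 and limma on FPKM, beside 3.69% of the 13755 genes tested, and 3 had an unadjusted p under 0.05 (Cyp7a1, Cyp27a1 and Abcb11). No member separated the groups, beside 13.7% of all genes. Cyp7a1 measured 200.5, 42.6, 221 and 234 CPM in young and 109, 39.5, 65.7 and 56.6 CPM in old males. Young male 2 lay at the low end of the old range and the other young males above it. The difference was large but wide (log2 fold change -1.36, SE 0.47, edgeR FDR = 0.131; 95% interval -2.41 to -0.30), and it passed without young male 2 (FDR = 0.0276) and with no filter on low counts (FDR = 0.0352).
Slc10a1 measured 1042, 833, 400.4 and 460.3 CPM in young and 396, 681, 583 and 736 CPM in old males. The young males were split, with males 1 and 2 high and males 3 and 4 low (log2 fold change -0.18, SE 0.30, edgeR FDR = 0.773). Cyp27a1 measured 877, 691, 624 and 709 CPM in young and 631, 521, 559 and 620.0 CPM in old males, and old male 2 overlapped the young group (log2 fold change -0.30, SE 0.13, edgeR FDR = 0.204). Abcb11 was 413, 762, 536 and 553 CPM in young and 320.2, 567, 374 and 342 CPM in old males, overlapping (log2 fold change -0.48, SE 0.22, edgeR FDR = 0.228).
Nr1h4, lower in old females, was 197, 115, 140.2 and 139 CPM in young and 129, 134, 136 and 157 CPM in old males, with overlap (log2 fold change -0.078, SE 0.16, edgeR FDR = 0.811). Over the interaction of age and sex, 0 of 10 members passed in edgeR, DESeq2 and limma, beside 3.92% of 14721 genes, and an unadjusted p fell under 0.05 for 3. For Slc10a1 the effect in females minus that in males was -0.94 (SE 0.33, FDR = 0.113) and for Nr1h4 -0.40 (SE 0.19, FDR = 0.228). Both passed when young male 1 was left out (FDR = 0.0213 and 0.0296), and neither did when any other mouse was left out.
In the wider lists, Mafg was lower in old males at -0.37 (SE 0.0849, FDR = 0.0426) and Cyp2b10 at -1.85 (SE 0.31, FDR = 0.0140). These were the genes called by edgeR among the 15 synthesis enzymes, 14 transporters, 19 regulators, 7 detoxification and 13 clock genes tested. DESeq2 called 2 synthesis enzymes, 0 transporters, 2 regulators, 2 detoxification genes and 1 clock gene, and limma on FPKM called 0 in each of these lists. The effect of age on Slco1a1 differed between the sexes, by -4.20 (SE 0.59, FDR = 0.00146) on the log2 scale: males had 153 to 333 CPM when young and 69.2 to 395 CPM when old. Old males were 24 months and old females 20 months of age, so sex and the span of age cannot be told apart. B and plasma cell markers summed to 12.5 to 38.3 CPM in young and 117 to 243 CPM in old males (6 of 7 higher in edgeR, 1 of 7 in limma). T and NK cell markers were also apart, 1.57 to 3.27 against 4.46 to 12.9 CPM (1 of 3 higher in edgeR, 4 of 9 in DESeq2). In edgeR, 2 of 10 Kupffer cell and macrophage, 1 of 8 cholangiocyte and 1 of 8 stellate cell markers were higher. Lower were 2 of 10 periportal and 1 of 10 pericentral genes. The part of these lists in the values of the members was not tested.

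Young females and males were compared to see how the pathway differs by sex. Cyp7b1 was lower in females, and it was the 1 of 10 members called, beside 10.5% of the 13875 genes tested. Cyp7b1 measured 32.1, 28.8, 27.2, 22.0 and 23.9 CPM in young females and 79.5, 96.5, 71.4 and 164 CPM in young males. Every female was below every male, beside 12.8% of all genes (log2 fold change -1.95, SE 0.22, edgeR FDR = 0.000164), and the call stood in 7 of 7 alternative fits and without any 1 of the 9 mice. The old mice, which this test did not use, were also apart: 19.4 to 23.6 CPM in old vehicle and 18.3 to 29.6 CPM in HDM201 females against 92.5 to 199 CPM in old vehicle and 53.2 to 146 CPM in HDM201 males.
Slc10a1 leaned the other way, 893 to 1274 CPM in females and 400.4 to 1042 CPM in males, with young male 1 inside the female range (log2 fold change 0.69, SE 0.25, edgeR FDR = 0.0972). It missed the threshold here, and passed in 4 of 7 alternative fits and without young male 1 (log2 fold change 0.97, FDR = 0.0166). Abcb11 (569 to 895 against 413 to 762 CPM) and Abcb4 (163 to 224 against 123 to 197 CPM) overlapped between the sexes. Cyp7a1 (86.3 to 503 against 42.6 to 234 CPM) and Cyp8b1 (149 to 315 against 114 to 322 CPM) did too.
Of 15 other transporters, 2 were higher and 4 lower in young females. The largest were Slc51b, a subunit of the basolateral exporter, at 2.03 (SE 0.52, FDR = 0.0292) from low counts, Slco1a4 at 1.72 (SE 0.16, FDR = 4.61e-05), Slco1a1 at -2.11 (SE 0.29, FDR = 0.000772), Slc10a2 at -2.08 (SE 0.30, FDR = 0.00115) and the efflux pump Abcg2 at -0.81 (SE 0.14, FDR = 0.00367). Of 15 synthesis enzymes, 2 were higher (Akr1d1 at 0.67 (SE 0.11, FDR = 0.00262) and the oxysterol hydroxylase Cyp39a1 at 0.54 (SE 0.15, FDR = 0.0420)) and 1 lower (Scp2, sterol carrier protein, at -1.13 (SE 0.12, FDR = 9.81e-05)). Of 19 regulators, Nr1i3, the receptor CAR, was higher at 1.05 (SE 0.23, FDR = 0.0136), and Onecut1, a hepatocyte transcription factor, was among the lower ones at -1.61 (SE 0.46, FDR = 0.0439). Of 10 detoxification genes, 5 were higher and 2 lower in females. DESeq2 called 3 transporters higher and 4 lower, and 2 synthesis enzymes higher and 2 lower. It called 1 regulator higher and 3 lower, and 5 detoxification genes higher and 3 lower. Limma on FPKM called 2 transporters higher and 3 lower. It called 1 synthesis enzyme, 1 regulator and 5 detoxification genes higher, and 0 lower in these 3 lists.
Sult2a1 held 5 counts over the 4 young males and 24.1 to 197 CPM in young females. Sult2a5 had 0 counts over the 4 young males, which allows up to 0.0383 CPM (3 counts over the group, counting error only), so its mean of 6.95 CPM in females was at least 182-fold higher. Akr1b7, an aldo-keto reductase, was higher in females at 2.28 (SE 0.25, FDR = 0.000143), and Gsta1 and Ugt2b5, conjugating enzymes, were lower at -1.35 (SE 0.38, FDR = 0.0436) and -0.48 (SE 0.13, FDR = 0.0404). Kupffer cell and macrophage markers were 240.5 to 364 CPM in young females and 111 to 229 CPM in young males (6 of 9 tested higher in females in edgeR, 0 of 9 in limma). Stellate cell markers, 375 to 522 against 228 to 294 CPM, and endothelial markers, 192 to 251 against 132 to 177 CPM, did not overlap either. In edgeR each had 4 of 8 higher in females, while limma called 4 of 8 stellate and 1 of 8 endothelial markers higher. The part of these cells in the differences by sex was not tested.

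Across the 6 group means of log2(CPM + 1), 4 members spanned at least 1: Cyp7b1 (2.58), Cyp7a1 (1.81), Slc10a1 (1.43) and Cyp8b1 (1.34). Among 12773 genes with a mean of at least 1 CPM, the pattern nearest to Slc10a1, by the root mean square difference of centred group means, was that of Gm16157 (0.11), then Me1, malic enzyme (0.11). The nearest to Cyp8b1 were Asic5 (0.14) and Gnmt, glycine N-methyltransferase (0.15), to Cyp7a1 Extl1 (0.13), and to Cyp7b1 Snhg11 (0.20) and Grm8 (0.21).
Between mice of the same group, the members also varied together in part. With group means subtracted, the log2 levels of Cyp8b1 and Slc10a1 had a Pearson r of 0.57 over 27 mice (Spearman rho 0.54), and 0.53 without the 2 mice farthest in Cyp8b1, the highest of 45 pairs. Within sex, r was 0.080 over 14 females and 0.81 over 13 males. The lowest pair was Cyp7a1 and Abcb11 with r of -0.52 (rho -0.54), and -0.36 without the 2 mice farthest in Cyp7a1. For this pair r was -0.26 over the females and -0.66 over the males. Values of a mouse share its library and scaling, and these correlations are descriptions with no test.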

How the data were processed

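Livers of 29 mice in 6 groups were profiled. Per the methods, the authors used STAR in 2-pass mode for alignment to mm10, then HTSeq for counts per gene. The deposited counts are whole numbers without normalization and cover 27 mice, and male 1 of the old vehicle group and male 5 of the young vehicle group enter no comparison of counts. The methods state that a young male was left out for a wound and a suspected infection, and which mouse it was is not given. The authors made FPKM values with Cufflinks for all 29 mice, which served as an alternative only, with empty cells read as 0. Fits on FPKM included the males without counts wherever their groups entered, so they differ from fits on counts in mice as well as in tool. Sums of the deposited FPKM ran from 690769 to 6010507 per mouse. Versions and the use of strand are not given in the sources used here. No columns were left out.

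The tests were run in R 4.3.3. Only the groups of a comparison entered its fit, made with the quasi-likelihood test of edgeR 4.0.16 after TMM scaling. Genes had to pass filterByExpr (10 counts at least, 15 in total), and a call is an FDR under 0.05 (Benjamini-Hochberg) over every gene tested. Interactions used 4 groups. Scripts were tested on simulated data. Alternatives were RLE scaling, no filter, DESeq2 1.42.0, a fit of all 6 groups, a replicate block, limma 3.58.1 (trend) on log2(FPKM + 1) or log2(FPKM + 0.1) with at least 0.5 FPKM, and leaving out each mouse. Printed CPM use TMM over the 27 mice. Intervals are 95%. Of the gene IDs, 54673 of 55421 were in GENCODE M21, whose merged exons gave lengths.

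The 10 members, and the lists (187 of 188 genes found), were chosen with earlier results of these data known. All members are named. From each pathway list, called genes were named up to the 3 largest rises and 3 largest falls. For members whose group means spanned at least 1, the 2 genes with the nearest pattern were named. Some genes that these rules pick are not reported here. The methods state that the mice were group housed, and the labels do not say which mice shared a cage. The tests took each mouse as an independent unit, so effects shared by cage mates were not modelled.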

Additional observations from a re-analysis of the deposited data

Results flagged for a closer look

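In 3 of 60 sets of 4 or 5 mice (10 members in 6 groups), 1 mouse stood farther from the others than Dixon's 95% critical value. Chance flags about 1 in 20 sets, which is the share seen here. Young vehicle female 5 had 503 CPM of Cyp7a1 and the other 4 had 86.3 to 183 CPM. HDM201 male 4 had 162 CPM of Cyp7a1 and the other 4 had 24.2 to 51.5 CPM. Young vehicle female 2 had 199 CPM of Baat and the other 4 had 244 to 260.4 CPM.

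No member passed the test of whether the effect of age or of HDM201 differed between the sexes, and 3 genes of the wider pathway lists passed it for age. Old females and old males differed in age, so a difference between the sexes cannot be told apart from one of age span. Substrain changed with age, so an effect of age here is one of age and substrain together. For Slco1a1 the effect of age in females minus that in males was -4.20 on the log2 scale (SE 0.59, edgeR FDR = 0.00146), with a lower level in every old female and overlapping males. For Cyp2b10 it was 2.70 (SE 0.35, FDR = 0.00112), with 33.4 to 57.1 CPM in young and 63.9 to 80.5 CPM in old females, and 10.9 to 23.7 CPM in young and 2.87 to 6.90 CPM in old males, so the groups separated in opposite directions. For the clock gene Per3 it was -2.14 (SE 0.58, FDR = 0.0454), with 33.0 to 123 and 10.7 to 36.7 CPM in young and old females, and 29.1 to 68.8 and 35.4 to 61.9 CPM in young and old males.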

How the results depend on the processing

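Abcb4 with HDM201 in females, Slc10a1, Nr1h4 and Cyp27a1 with age in females, and Cyp7b1 by sex stayed called in 7 of 7 alternative fits and with any 1 mouse left out. With no filter on low counts, 1 member (Cyp7a1) was called in old against young males. For young females against males, 2 members (Cyp7b1 and Slc10a1) were called with no filter, in DESeq2, with all 6 groups in 1 fit and with the replicate block, in place of 1. Leaving out 1 mouse at a time moved the members called between 3 and 6 in old against young females, 0 and 1 in old against young males, 1 and 2 by sex, and 0 and 2 in the interaction of age and sex. The counts stayed at 1 for HDM201 in females and at 0 for HDM201 in males and for its interaction with sex.
Over 58 member values with no call in any setting, the sign changed in 45 of 406 values of the other settings and in 70 of 667 values with a mouse left out. The cause of these shifts was not tested.
Mice with the same replicate number in different groups were not treated as pairs. Correlations of their deviations from the group means ran from -0.229 to 0.228. The own number was the best match for some mice and not for others. With 4 or 5 mice a group, this cannot exclude that same-numbered mice were handled together. The replicate block moved the log2 fold change of Cyp7a1 in old against young females from -1.01 to -0.36 (edgeR FDR = 0.316). With the replicate block, Slc10a1 by sex was called (FDR = 0.0318), and the genes called over the whole table went from 758 to 366 (HDM201 in females), 4530 to 3454 and 507 to 29 (age in females and males), 1462 to 858 (sex), 16 to 0 and 577 to 183 (interactions), with 1 and 1 for HDM201 in males. DESeq2 called 1330, 151, 1318 and 643 genes for HDM201 in females and males, age in males and the interaction of HDM201 and sex, and limma on log2(FPKM + 1) called 198, 1, 73 and 0. The number of mice, 4 or 5 a group, limits what can be seen for Cyp7a1, Cyp8b1 and Nr0b2, whose SD reached 91.1%, 69.0% and 56.4% of the group mean.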

Other observations

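Genes with a strong sex bias in mouse liver also differed between old and young vehicle females. The 11 male-biased genes summed to 1892 to 2622 CPM in young vehicle, 542 to 1079 CPM in old vehicle and 284 to 593 CPM in old HDM201 females, with 5 of 6 genes tested called lower in old against young vehicle females. In males the same genes summed to 8883 CPM or more in every mouse. The 9 female-biased genes summed to 2109.6 to 3828 CPM in young vehicle, 4158 to 8182 CPM in old vehicle and 6288 to 11198 CPM in old HDM201 females. Of these, 3 were called higher and 5 lower in old against young vehicle females. Between HDM201 and vehicle in old females the sums of both lists overlapped, and edgeR called 0 of 5 male-biased and 0 of 9 female-biased genes tested, with 1 of each under an unadjusted p of 0.05, while DESeq2 called 1 male-biased gene lower and limma on FPKM 0 genes.

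The 2 males without counts had FPKM values, which enter no comparison of counts. Old vehicle male 1 had 7.68 FPKM of Cyp7a1, 139 of Slc10a1, 50.4 of Cyp7b1 and 49.0 of Abcb4. The 5 old vehicle males, this mouse included, ran over 7.68 to 22.3, 139 to 393, 43.4 to 86.2 and 28.5 to 49.0 FPKM for these genes. Young vehicle male 5 had 15.8 FPKM of Cyp7a1, 192 of Slc10a1, 21.6 of Cyp7b1 and 27.2 of Abcb4. The 5 young vehicle males, this mouse included, ran over 8.66 to 51.8, 192 to 555, 21.6 to 74.6 and 24.2 to 41.1 FPKM.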
